A study of Mus musculus with 68 samples.

Results

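The genes described here are the 10 laminin, nidogen and perlecan genes Lama2, Lama3, Lama4, Lama5, Lamb1, Lamb2, Lamc1, Nid1, Nid2 and Hspg2, found by symbol among the 37991 lines of the deposited table. Each symbol had 1 line, and every gene had reads in all 68 libraries. They encode proteins of the basement membrane, the thin sheet of matrix on which endothelial cells sit and which, in the brain, also encloses pericytes and meets the astrocyte endfeet. A laminin is a cross-shaped trimer of an alpha, a beta and a gamma chain. The alpha chain carries the main binding sites for cell surface receptors, and the beta and gamma chains are needed for assembly and secretion. Endothelial cells make laminins with the alpha4 chain (Lama4) and the alpha5 chain (Lama5), mural cells and astrocytes are known for the alpha2 chain (Lama2), and the alpha3 chain (Lama3) is best known from epithelia. Lamb1 and Lamb2 encode the beta1 and beta2 chains and Lamc1 the gamma1 chain. The nidogens (Nid1, Nid2) bind the laminin gamma1 chain and collagen IV, and perlecan (Hspg2) is a large heparan sulfate proteoglycan that also holds growth factors.

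The study sequenced RNA from mouse endothelial cells, of healthy organs and of injured brain or spinal cord, in 68 libraries of 25 groups. Healthy libraries were named brain vascular, heart, kidney, lung and liver endothelial cells (n = 2 each) and whole brain (n = 4), and brain endothelial cells (n = 2) came from forebrain of adult male Rosa-tdTomato; VE-Cadherin-CreERT2 mice, in which tamoxifen turns on a red reporter in endothelial cells. Injury libraries were brain endothelial cells after epilepsy, after stroke by middle cerebral artery occlusion (MCAO) and after traumatic brain injury (TBI), and spinal cord endothelial cells in experimental autoimmune encephalomyelitis (EAE), an immune model of multiple sclerosis. Each model had acute, subacute and chronic groups of n = 3 with a control group of n = 3, except that TBI had a control group per stage, of n = 3 at the acute stage and n = 2 at the subacute and chronic stages. The labels give no strain, age, sex, days or inducing agent for these injury groups, and do not say whether replicates were separate animals, so the p-values below reflect library-to-library spread, which may be technical. The 66 libraries other than brain endothelial carry a shorter description, cells sorted into Trizol, which is also given for whole brain. Organ and preparation therefore cannot be told apart where brain endothelial cells are compared with other groups.

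Levels are the authors' CPM (reads scaled to a library total of 1000000), given by library in replicate order, and depth was 18779302 to 38758865 reads per library (median 27259699). The endothelial marker list (12 genes) lay between 8.69 and 9.85 on the log2(CPM + 1) scale for each sorted group, and at 3.36 in whole brain. The 12 mural cell markers had a summed level of 4042 to 5059 CPM in brain vascular, 664 to 747 in brain endothelial and 758 to 790.0 in heart libraries, and of 1030.3 to 9233 CPM over the 52 injury and control libraries. Log2 folds are on the log2(CPM + 1) scale with their standard error. A gene is said to have risen or fallen where limma's adjusted p, taken over all genes tested, was under 0.05. In such bulk libraries a change in the share of a cell type and a change in its RNA per cell cannot be told apart.

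In healthy endothelium, brain endothelial cells stood below the organ mean for Lama4 and above it for Lama5. Lama4 stood at 332 and 385 CPM in heart, 251 and 216 in kidney, 228 and 229.6 in liver, 149 and 179.8 in lung, 125 and 139.7 in brain endothelial cells and 96.7 and 121 in brain vascular cells. No neighbours in that order differed by limma, but brain endothelial cells lay below the mean of the 4 organs (log2 fold -0.83 ± 0.16, limma adjusted p = 0.00114), with both libraries below all 8 organ libraries. Lama5 stood at 177 and 230.2 CPM in brain endothelial cells against 270.0 in kidney, 99.5 in lung, 85.0 in heart and 46.2 in liver (means). It was above the organ mean (1.00 ± 0.27, limma adjusted p = 0.0124), a call that was lost without brain endothelial replicate 2 (limma adjusted p = 0.0986), and no neighbours in its order over the 6 sorted groups differed. Per kb of coding sequence, Lama4 made up 87.0 ± 3.44% (SD, n = 2) of the 4 alpha chains in heart and 87.6 ± 2.73% in liver, 52.7 ± 4.92% in kidney and 53.0 ± 2.56% in brain endothelial cells, where Lama5 made up 39.5 ± 2.40%. These shares are descriptions with no test.

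Lama2 marked the brain vascular libraries. Its level was 33.5 and 51.2 CPM in brain vascular cells, 3.94 and 5.80 in brain endothelial cells and 18.6, 20.9, 21.1 and 15.4 in whole brain. The 4 organs lay at means of 1.92 to 8.41 CPM, so brain vascular cells were above their mean (log2 fold 3.15 ± 0.50, limma adjusted p = 0.000351), with both libraries above all 8. Against brain vascular cells, brain endothelial cells were lower (-2.87 ± 0.63, limma adjusted p = 0.0163), a call lost without either brain vascular library or brain endothelial replicate 1 (limma adjusted p = 0.0643 to 0.0861) and with a pseudocount of 0.1 (0.0682). Of 12 mural markers, 12 were higher in brain vascular cells than in the organs, beside 1225 of all 18141 tested genes. In brain endothelial cells 11 were lower than in brain vascular cells, beside 748 of 18141 genes. The part of mural cells in the Lama2 difference was not tested. Lama3 was highest in kidney, at 133 and 143 CPM in kidney and at 15.2 to 30.5 CPM (means) in the other 5 sorted groups. Kidney differed from brain vascular cells, the next in order (-2.22 for brain vascular minus kidney, limma adjusted p = 0.000125; 19.4% of all genes were called), and the other neighbours did not. The kidney tubule marker Umod had a mean of 7.87 CPM (SD 16.6) over the libraries of the 4 organs, and the others of its list 1.43 to 2.93. In brain endothelial cells Umod was at 0. The part of tubule cells in the kidney Lama3 level was not tested.

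Between the beta chains, Lamb1 was the one with the wide range over organs. Lamb1 reached 141 and 139 CPM in heart, 26.5 and 42.9 in lung and 22.3 and 27.9 in kidney. It was low in the other sorted groups, at 11.3 and 10.2 in brain vascular, 2.08 and 11.9 in liver and 5.64 and 3.60 in brain endothelial cells. The 2 liver libraries disagreed, and both brain endothelial libraries lay between them. Summed fibroblast markers were 1045 and 1155 CPM in heart, 318 and 327 in lung, 151 and 600 in liver and 26.2 and 3.32 in kidney. In brain vascular cells these sums were 62.5 and 54.3 CPM, and in brain endothelial cells 74.1 and 96.2. The part of fibroblasts in the Lamb1 values was not tested. Brain endothelial cells were below the organ mean (log2 fold -2.44 ± 0.39, limma adjusted p = 0.00032). Brain vascular cells were below it too (-1.35 ± 0.39, limma adjusted p = 0.0243), a call lost without either brain vascular library (limma adjusted p = 0.136 without replicate 1 and 0.146 without replicate 2). Lamb2 spanned a narrower range, from a mean of 99.2 CPM in liver to 317 in kidney, with no neighbours in its order called and 183 and 297 CPM in brain endothelial cells. Per coding length, Lamb1 was 44.6 ± 1.86% of the beta chains in heart, 21.1 ± 5.09% in lung and 2.06 ± 1.25% in brain endothelial cells (n = 2 each). Lamc1, the common gamma chain, went from 420.1 and 496 CPM in kidney to 78.1 and 106 in liver, with brain endothelial cells at 229 and 259. In that order lung and liver differed (log2 fold 1.14 ± 0.28, limma adjusted p = 0.00948; 18.4% of all genes were called), a call lost without lung replicate 2 or liver replicate 1 (limma adjusted p = 0.0909 to 0.114), and the other neighbours were not called.

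The nidogens differed in their organ patterns. Nid1 was at 476 and 432 CPM in kidney, 441 and 381 in heart, 439 and 376 in liver and 255 and 305 in lung. Brain endothelial cells, at 199 and 162 CPM, and brain vascular cells, at 125 and 136, lay below all 8 organ libraries (log2 fold against the organ mean -1.08 ± 0.16, limma adjusted p = 0.000139, and -1.54 ± 0.16, limma adjusted p = 6.13e-06). Nid2 was highest by mean in brain endothelial cells, at 95.6 and 108 CPM against 84.6 and 71.2 in heart, 64.2 and 75.6 in kidney, 14.7 and 39.8 in lung and 7.68 and 13.6 in liver. All 8 organ libraries were lower (1.53 ± 0.30, limma adjusted p = 0.00163), although heart as the next in order did not differ on its own. Brain vascular cells had 19.5 and 28.0 CPM, below brain endothelial cells (2.07 ± 0.39 for endothelial minus vascular, limma adjusted p = 0.00658), a call lost without brain vascular replicate 1 (0.0724). Exons of Nid2 share 437 bases on the opposite strand with Rtraf, a gene at a mean of 15.3 CPM, and reads of the shared part cannot be told apart because the strand used in counting is not given in the sources used here. Exons of Lama2, Lama3 and Nid1 share 631, 197 and 143 bases on the opposite strand with the antisense genes Gm48084, Gm29200 and Gm48682, with the same limit.

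Perlecan had its lowest means in lung and brain vascular cells among the 6 sorted groups. In its order by mean, the 2 brain groups were the only neighbours that differed. Hspg2 stood at 1609 and 1432 CPM in kidney, 1352 and 1305 in heart and 1004 and 960.1 in liver, and at 116 and 156 in lung. Brain endothelial cells held 707 and 529 CPM and brain vascular cells 132 and 298, and the 2 brain groups differed (log2 fold 1.62 ± 0.38, limma adjusted p = 0.0222), a call lost without brain vascular or brain endothelial replicate 1 (limma adjusted p = 0.205 and 0.122). Brain vascular cells were below the organ mean (-1.85 ± 0.30, limma adjusted p = 0.000435), and brain endothelial cells were not (-0.23 ± 0.30, limma adjusted p = 0.614). Over the 10 genes, 2 were higher and 3 lower in brain endothelial cells than in the organ mean, where 31.6% of all 18141 tested genes were called. In brain vascular cells 1 was higher and 4 were lower, against 22.2% of genes. Between brain endothelial and brain vascular cells 3 of 10 differed, against 7.77%. Against whole brain, 8 of 10 were higher in brain endothelial cells, where 25.1% of genes were, and the 2 that were lower were Lama2 (-1.78 ± 0.55, limma adjusted p = 0.0123) and Lamb1 (-1.50 ± 0.43, limma adjusted p = 0.0083; 32.6% of genes were lower). Without brain endothelial replicate 1 the call on Lama2 was lost (limma adjusted p = 0.083), as with a pseudocount of 0.1 (0.0597), and without replicate 2 that on Lamb1 (0.0731).

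**Figure D1:**
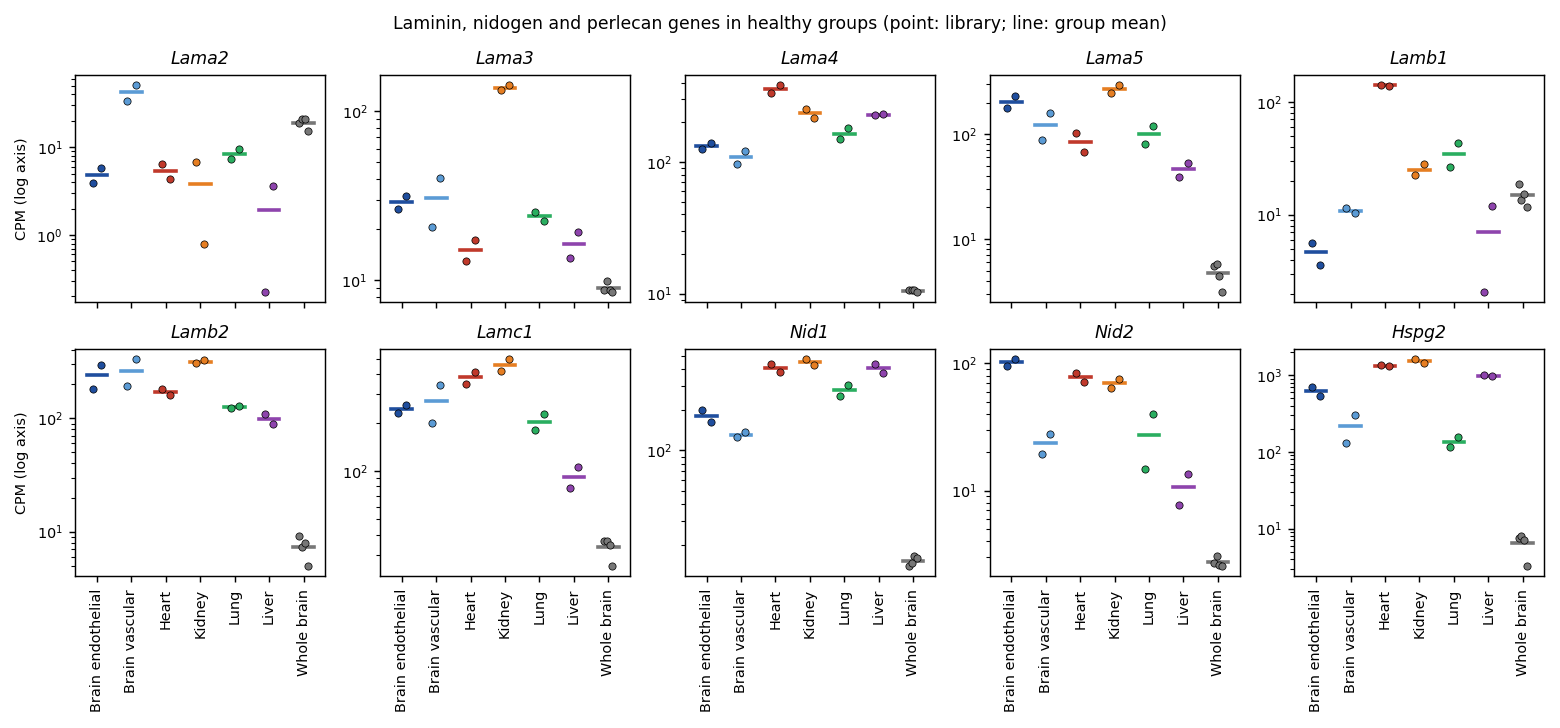
CPM of the 10 genes in the 7 healthy groups on a log axis, with a point per library and a line at the group mean. Lamb1 is lowest in brain endothelial cells (mean 4.62 CPM) and highest in heart (140.3 CPM), while Nid2 is highest in brain endothelial cells (102 CPM) and Lama2 in brain vascular cells (42.3 CPM).

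Of the 10 genes Lamb1, the beta1 chain, had the largest fold against control wherever it was called. It rose in epilepsy, EAE and stroke at the subacute stage, in EAE at the chronic stage and in TBI at the acute stage, and in epilepsy, stroke and TBI its chronic level did not differ from control by the test. In epilepsy it went from 13.1, 12.5 and 7.32 CPM in controls through 19.9, 18.7 and 7.72 at the acute stage to 36.0, 41.6 and 31.9 at the subacute stage and 14.0, 15.9 and 10.3 at the chronic stage. The subacute libraries lay above all others of the model. Their log2 fold against control was 1.68 ± 0.30 (limma adjusted p = 0.00148), a 3.33-fold higher mean, and the subacute stage was above the acute (1.29 ± 0.30, limma adjusted p = 0.0021) and the chronic stage below the subacute (-1.40 ± 0.30, limma adjusted p = 0.0113). Against control, the acute stage was not called (0.39 ± 0.30, limma adjusted p = 0.313) but was without acute replicate 3 (0.0201). Summed mural markers were also lowest in replicate 3 of both groups, at 5501, 5555 and 3720 CPM in controls and 6352, 6159 and 3205 at the acute stage. At the subacute stage these sums were 5976, 5881 and 5125 CPM. The part of mural cells in the epilepsy values was not tested. The call from subacute to chronic was lost without subacute replicate 2 or chronic replicate 3 (limma adjusted p = 0.0679 to 0.0772).

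In stroke the course had the same outline. Lamb1 stood at 13.5, 6.74 and 12.2 CPM in controls, 7.80, 16.8 and 10.1 at the acute, 34.6, 64.2 and 37.6 at the subacute and 12.5, 7.49 and 10.5 at the chronic stage. The subacute libraries were above every other library of the model, with a log2 fold of 1.97 ± 0.30 against control (limma adjusted p = 0.00122), 1.89 ± 0.30 against the acute stage (limma adjusted p = 0.00184) and a chronic stage that fell by 2.03 on the log2 scale from the subacute (limma adjusted p = 0.00128). All 3 calls held without any 1 library of the model. Summed mural markers were 5817, 3953 and 5881 CPM in controls, 2740, 5879 and 2562 at the acute and 6561, 6538 and 4999 at the subacute stage. Control replicate 2, with the lowest Lamb1 of the controls, had their lowest mural sum, and acute replicate 2 was highest in both at its stage. The part of mural cells in the stroke values was not tested.

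In EAE the chronic libraries were still high. Lamb1 was at 14.4, 22.5 and 12.8 CPM in control spinal cord, 24.3, 49.0 and 18.7 at the acute, 73.2, 107 and 66.6 at the subacute and 41.7, 73.8 and 135 at the chronic stage. The acute libraries overlapped the controls, and the subacute and chronic ones did not. The log2 folds against control were 0.77 ± 0.41 (limma adjusted p = 0.383), 2.25 ± 0.41 (limma adjusted p = 0.00463) and 2.15 ± 0.41 (limma adjusted p = 0.0179) at the 3 stages. The chronic call was lost without control replicate 1 or 3 or chronic replicate 2 or 3 (limma adjusted p = 0.0571 to 0.0956), and the subacute call held without any 1 library. Summed mural markers were lower in the same libraries, at 2805 to 3103 CPM at the subacute and 2019 to 2168 at the chronic stage against 4623 to 5317 in controls. Of the 12, 1 was called higher and 2 lower at the subacute stage, beside 8.06% and 3.56% of all genes. At the chronic stage 5 were lower, beside 84 of all 14508 tested genes. The part of mural cells in the Lamb1 values was not tested.

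TBI had its highest levels at the acute stage. Lamb1 was at 117, 118 and 116 CPM against 25.2, 21.2 and 55.0 in acute controls, with no overlap (log2 fold 1.89 ± 0.28, limma adjusted p = 0.0013), and the call held without any 1 of the 16 TBI libraries. At the subacute stage it was at 92.2, 101 and 76.8 CPM against 33.4 and 48.8, again without overlap, but the difference did not pass the test with 2 controls (1.13 ± 0.32, limma adjusted p = 0.116). With the 3 TBI control groups pooled it did (limma adjusted p = 0.00621), as it did without acute control replicate 3 (limma adjusted p = 0.0197). At the chronic stage the values were 15.7, 17.5 and 12.4 against 20.3 and 11.4 CPM. The TBI controls themselves were not alike: acute and subacute controls averaged 33.8 and 41.1 CPM, and the other brain controls (epilepsy, stroke, TBI chronic) 11.0, 10.8 and 15.9 CPM. What was done to the TBI controls is not given in the sources used here.

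Whether the Lamb1 response depended on the model was tested directly. The log2 fold against the own control differed between the 4 models at the acute stage (F test in limma, adjusted p = 0.026) and at the chronic stage (adjusted p = 0.023), but not at the subacute stage (adjusted p = 0.408). The acute folds were 0.39 in epilepsy, 0.77 in EAE, 0.08 in stroke and 1.89 in TBI. The chronic folds were 0.28, 2.15, -0.05 and -0.02 in the same order. The acute call was lost without any of 5 libraries, namely stroke control or stroke acute replicate 1, TBI acute control replicate 1 or 2 and TBI acute replicate 2 (limma adjusted p = 0.0509 to 0.111). The chronic call was lost without EAE control replicate 1 or 3 or EAE chronic replicate 2 or 3 (limma adjusted p = 0.0531 to 0.147).

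**Figure D2:**
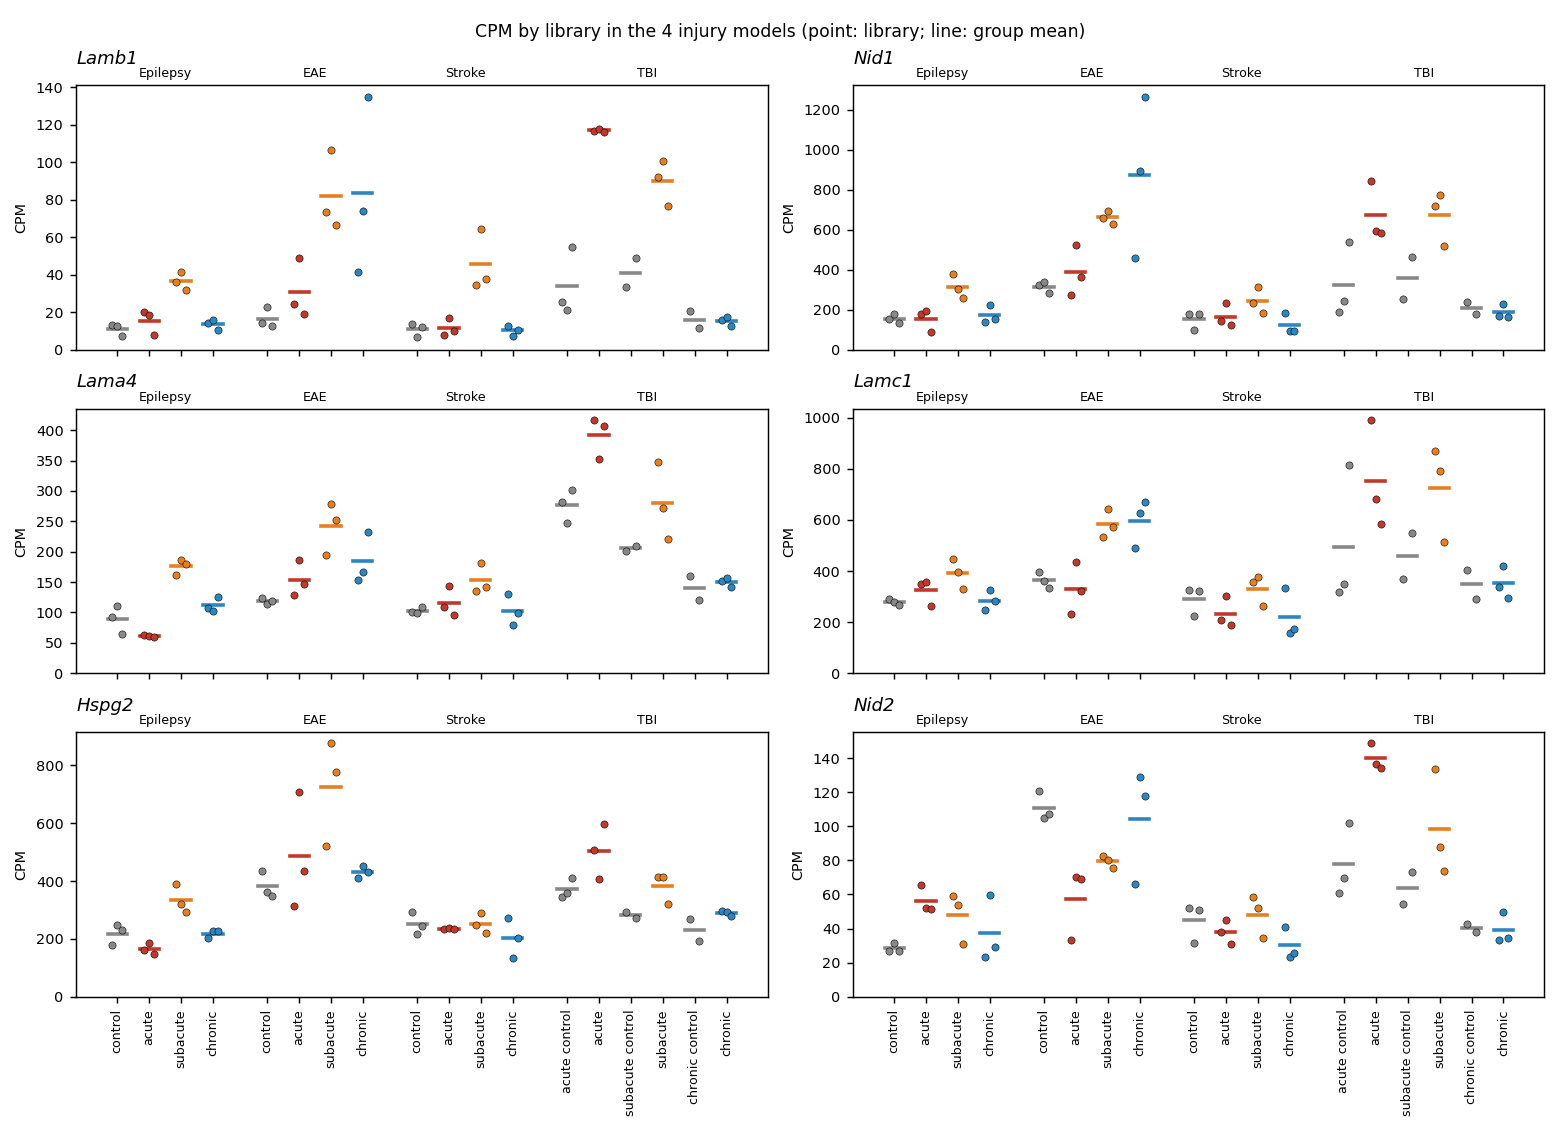
CPM by library of Lamb1, Nid1, Lama4, Lamc1, Hspg2 and Nid2 in the control and injured groups of the 4 models, with a point per library and a line at the group mean. Lamb1 is above every control of the same model in the subacute epilepsy, EAE and stroke libraries and in the acute TBI libraries, which lie at 117, 118 and 116 CPM.

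Lamb2, the other beta chain, did not share this rise. Over the 52 injury libraries its level lay between 145 and 284 CPM, with a median of 229. It fell in 1 comparison, subacute stroke, with 174, 188 and 162 CPM against 273, 233 and 259 in controls and no overlap (log2 fold -0.54 ± 0.14, limma adjusted p = 0.0292). That call was lost without control replicate 1 or 3 or without any of the subacute libraries (limma adjusted p = 0.0586 to 0.144). In acute TBI the values were 228, 158 and 165 against 229, 276 and 284 CPM, lower in all 3 but not called (-0.53 ± 0.18, limma adjusted p = 0.103), and it was called without TBI acute replicate 1 (limma adjusted p = 0.0292), with quantile normalization (0.0236), with mitochondrial rRNA left out (0.0311) and with edgeR (adjusted p = 0.0344).

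Promoters are shown for Lamb1 and Nid1, described next, which had alike patterns, and for Lamb2, which did not share them. Whether promoter letters bear on these patterns was not tested. No promoter window was at hand for Lama3, Lama4, Lamc1 and Nid2. Promoter windows of 300 bases around the RefSeq start were used for the other 6 of the 10 genes, in build GRCm38.p6. They are printed for Lamb1 (chr12:31265043-31265342, plus strand), Nid1 (chr13:13437352-13437651, plus strand) and Lamb2 (chr9:108479612-108479911, plus strand), 5′ to 3′, with capitals marking matches on either strand to the GC box GGGCGG, the CCAAT box CCAAT and the AP-1 motif TGANTCA.
Lamb1: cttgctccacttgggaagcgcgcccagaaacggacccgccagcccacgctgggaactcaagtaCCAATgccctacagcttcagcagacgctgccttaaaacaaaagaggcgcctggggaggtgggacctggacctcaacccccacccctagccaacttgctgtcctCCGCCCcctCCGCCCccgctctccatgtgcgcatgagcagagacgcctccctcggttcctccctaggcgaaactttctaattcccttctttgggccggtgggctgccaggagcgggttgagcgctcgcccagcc
Nid1: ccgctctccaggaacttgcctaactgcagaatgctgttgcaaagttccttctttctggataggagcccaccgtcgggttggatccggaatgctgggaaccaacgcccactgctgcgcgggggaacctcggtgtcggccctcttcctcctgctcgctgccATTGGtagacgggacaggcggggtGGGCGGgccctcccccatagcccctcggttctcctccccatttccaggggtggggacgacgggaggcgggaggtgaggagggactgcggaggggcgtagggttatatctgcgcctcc
Lamb2: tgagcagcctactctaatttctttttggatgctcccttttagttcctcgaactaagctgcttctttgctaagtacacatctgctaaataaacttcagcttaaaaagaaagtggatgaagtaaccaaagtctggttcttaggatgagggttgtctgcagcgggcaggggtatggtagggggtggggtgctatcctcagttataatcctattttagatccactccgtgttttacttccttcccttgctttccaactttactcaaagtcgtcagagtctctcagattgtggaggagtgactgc
The Lamb1 window held 2 GC boxes and 1 CCAAT box, the Nid1 window 1 of each, and the Lamb2 window neither. In the order Lamb1, Nid1 and Lamb2, GC content was 63.7%, 64.7% and 44.0%. The windows of Lama2 and Lama5, which did not rise against control, held 1 and 4 GC boxes at a GC content of 50.3% and 72.7%, and that of Hspg2, which rose, held 5 at 70.3%, and none of these 3 held a CCAAT box. None of the 6 windows held TGANTCA. Of all 32851 such mouse windows, 35.7% held GGGCGG, 37.4% CCAAT and 7.81% the AP-1 motif. The first bases of a CCAAT box can overlap a GC box on the other strand, and no match printed here does so. The TATA box, spelled TATAAA, the cyclic AMP response element, spelled TGACGTCA, and the ETS core, spelled GGAAG, were also searched on both strands. The 6 windows did not hold the TATA box (13.6% of all windows) or the cyclic AMP response element (1.79%), and 5 of 6 held the ETS core (71.4%). The matches describe letters only, and the data hold no measure of binding.

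The ratio of the beta chains was taken within each library, where depth and scaling cancel. Per kb of coding sequence, the Lamb1 to Lamb2 ratio was 0.0275 to 0.0591 in epilepsy controls and 0.112 to 0.172 at the subacute stage. It was 0.0284 to 0.0483 in stroke controls and 0.195 to 0.335 at the subacute stage. In EAE it was 0.0589 to 0.103 in controls, 0.294 to 0.435 at the subacute and 0.177 to 0.630 at the chronic stage. In acute TBI it was 0.504 to 0.731 against 0.0754 to 0.190, the injured group with the highest median, just below healthy heart at 0.764 to 0.850. None of these injured ranges overlapped its control range. These stages were listed because Lamb1 was called there, so that lack of overlap is not separate support. At the acute stages of epilepsy, EAE and stroke the ratio overlapped the controls, at 0.0293 to 0.0804, 0.0770 to 0.180 and 0.0357 to 0.0837. Lamb2 was still the larger of the pair in all 52 injury libraries. Whole brain, with ratios of 1.82 to 2.32, was the group where Lamb1 was the larger.

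Of the 4 alpha chains described here, alpha4 was the one that rose against control. In epilepsy Lama4 fell before it rose, with 91.9, 110.3 and 65.2 CPM in controls, 63.2, 61.8 and 59.2 at the acute, 162, 187 and 179.9 at the subacute and 107, 103 and 125 at the chronic stage. All acute libraries lay below and all subacute libraries above the controls. The log2 fold was -0.50 ± 0.16 at the acute stage (limma adjusted p = 0.019) and 1.00 ± 0.16 at the subacute stage (limma adjusted p = 0.000694), and the rise from acute to subacute was 1.50 ± 0.16 (limma adjusted p = 2.78e-06). From the subacute to the chronic stage it fell by 0.65 (limma adjusted p = 0.0245). The acute fall was lost without control replicate 1 or 2 or acute replicate 3 (limma adjusted p = 0.0551 to 0.0856), and with edgeR on recovered reads (adjusted p = 0.172). The chronic fall was lost without any subacute library or chronic replicate 1 or 2 (limma adjusted p = 0.0568 to 0.116).

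In EAE, Lama4 was at 123, 114 and 119 CPM in controls and 194, 278 and 252 at the subacute stage (log2 fold 1.00 ± 0.20, limma adjusted p = 0.00808), a call that held without any 1 library. The chronic libraries, at 154, 167 and 232 CPM, were also above all controls but did not pass the test (0.61 ± 0.20, limma adjusted p = 0.138). In stroke the subacute libraries stood at 136, 182 and 142 against 100.2, 99.7 and 108 CPM without overlap and with limma adjusted p = 0.07 (0.56 ± 0.18), which passed without chronic replicate 1 or 2 (limma adjusted p = 0.0303 to 0.048). It was called there with quantile normalization, mitochondrial rRNA left out or the 2 groups alone (limma adjusted p = 0.00316, 0.0043 and 0.0205) and with edgeR (0.00864). Acute TBI gave 417, 352 and 407 against 281, 248 and 302 CPM (0.50 ± 0.16, limma adjusted p = 0.0895), past the threshold without TBI subacute replicate 1 or 3 (limma adjusted p = 0.0413 to 0.0469). That too was called with quantile normalization, mitochondrial rRNA left out or pooled TBI controls (limma adjusted p = 0.00469, 0.00813 and 0.0159) and with edgeR (0.0198). Its acute response differed between models (F test in limma, adjusted p = 0.00965), with epilepsy as the model where it fell and folds of 0.36 in EAE, 0.15 in stroke and 0.50 in TBI. That difference was lost without epilepsy control replicate 2 (adjusted p = 0.0623).

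Lama5 fell in 1 comparison, subacute stroke. It lay at 82.2, 88.5 and 60.7 CPM in subacute stroke against 145, 98.5 and 158 in controls, below all of them (log2 fold -0.78 ± 0.22, limma adjusted p = 0.043). The call was lost without any of 7 libraries, stroke control replicate 1 or 3, acute replicate 2, any subacute library or chronic replicate 3 (limma adjusted p = 0.0536 to 0.21). In the other 11 comparisons with control it was not called, with folds between -0.70 in chronic EAE and 0.61 in subacute TBI. The Lama4 to Lama5 ratio per coding length was 0.862 to 2.04 in epilepsy controls, 0.833 to 0.871 at the acute and 2.53 to 4.17 at the subacute stage. It was 1.40 to 2.07 in stroke controls and 3.38 to 4.80 at the subacute stage, and 1.62 to 1.69 and 3.16 to 5.40 in EAE. In TBI it was 4.24 to 5.97 in acute controls and 6.28 to 8.72 in acute libraries, and 5.08 to 5.93 in subacute controls and 4.41 to 5.39 in subacute libraries, so the subacute ranges overlapped.

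**Figure D3:**
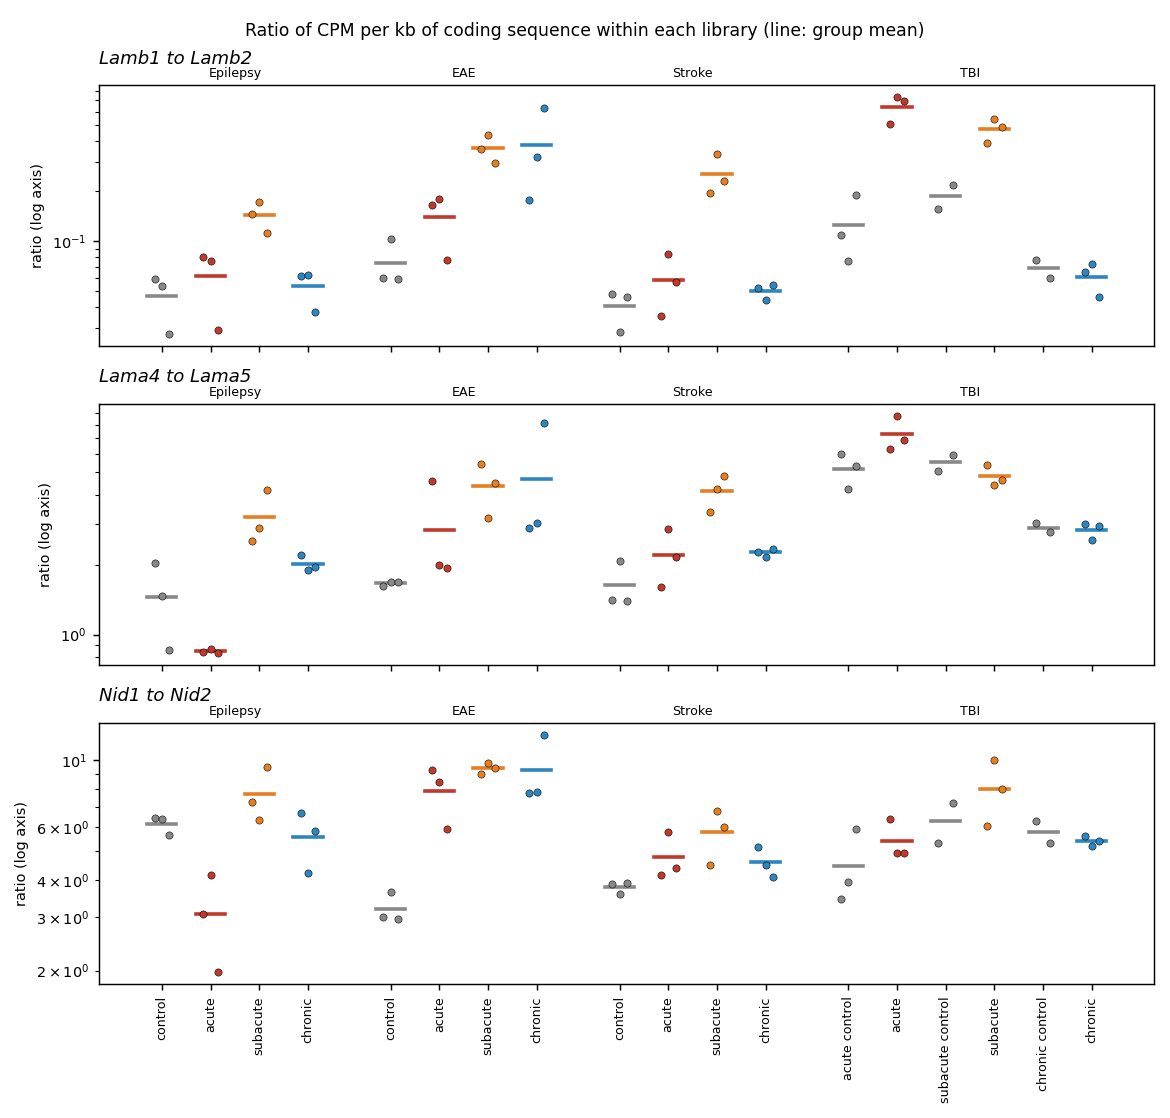
Ratios of Lamb1 to Lamb2, Lama4 to Lama5 and Nid1 to Nid2, per kb of coding sequence and within each library, in the control and injured groups of the 4 models on log axes (point for a library, line for the group mean). The Lamb1 to Lamb2 ratio has a median of 0.0461 in stroke controls, 0.228 in subacute stroke and 0.693 in acute TBI.

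Lama3 fell in 1 comparison and lay below the controls in others that were not called. It fell in subacute epilepsy, from 39.7, 38.3 and 36.8 to 25.3, 23.2 and 14.1 CPM (log2 fold -0.88 ± 0.25, limma adjusted p = 0.0276), a call lost without control replicate 1 or 2 or subacute replicate 3 (limma adjusted p = 0.0513 to 0.134). Its injured libraries also lay below every control in acute epilepsy and at all 3 stages of EAE and stroke, with folds from -1.05 in chronic stroke to -0.30 in acute epilepsy, none of which passed the test. The share of all genes without overlap was not taken, and in acute epilepsy 30.9% of all genes were called lower. The stages of a model were compared with the same 3 control libraries, so they are not independent observations. The lowest of those limma adjusted p values was 0.0666, in subacute stroke. Without stroke chronic replicate 1 it passed at each stroke stage (limma adjusted p = 0.0439 at the acute, 0.0317 at the subacute and 0.0173 at the chronic stage), and at the subacute stage also without stroke control replicate 2 (0.0418) or acute replicate 3 (0.0482). In subacute EAE it passed without acute replicate 1 (0.0412). Acute TBI, where the groups overlapped, passed without TBI acute replicate 1 (0.0188).

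Lama2 was not called by limma against control at any stage of any model. Its highest values were in chronic EAE, at 77.8, 221 and 363 CPM against 117, 144 and 90.9 in controls, where the 3 libraries disagreed (log2 fold 0.67 ± 0.44, limma adjusted p = 0.518). Without chronic replicate 1 it was called (limma adjusted p = 0.0474). In acute TBI the libraries split within both groups, with 10.4, 16.4 and 109 CPM in controls and 95.8, 92.6 and 18.7 in injured libraries. The summed mural markers split the same libraries, at 1030.3, 1396 and 7853 CPM in controls and 5517, 9233 and 1458 in injured ones. Lamc1 and Nid1 were also highest among these controls in replicate 3, the library with high mural markers, and without it the acute TBI fold of Lama2 was called (limma adjusted p = 0.0343). The part of mural cells in these values was not tested. Lamb1 was at 25.2, 21.2 and 55.0 CPM in the same controls, also highest in replicate 3, and at 117, 118 and 116 CPM in the injured libraries.

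**Figure D4:**
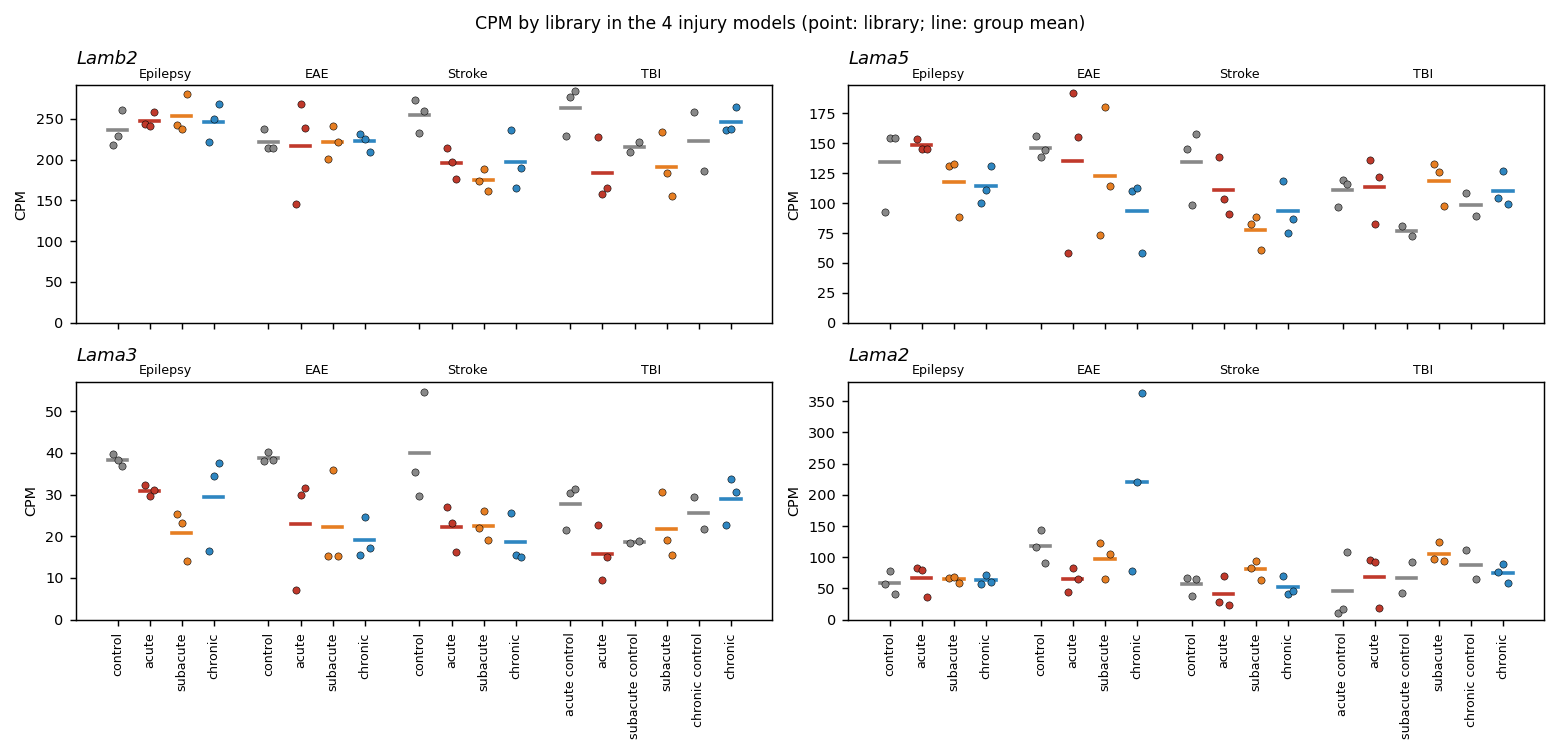
CPM by library of Lamb2, Lama5, Lama3 and Lama2 in the control and injured groups of the 4 models, with a point per library and a line at the group mean. Lamb2 stays between 145 and 284 CPM in all 52 libraries, and Lama2 separates libraries within the acute TBI groups and within chronic EAE.

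By limma the gamma1 chain rose in 1 comparison with control. Lamc1 went from 290.3, 279 and 266 CPM in epilepsy controls to 448, 396 and 331 at the subacute stage (log2 fold 0.48 ± 0.15, limma adjusted p = 0.0376), above all controls. That call was lost without any control library, subacute replicate 1 or 2, or chronic replicate 3 (limma adjusted p = 0.0501 to 0.167), with the 2 groups alone (0.0698) and with edgeR (adjusted p = 0.057). In EAE the subacute libraries, at 535, 643 and 572 CPM, and the chronic ones, at 490.4, 629 and 671, were above all controls at 398, 361 and 332. These missed the threshold (0.68 ± 0.22, limma adjusted p = 0.0597, and 0.70 ± 0.22, limma adjusted p = 0.115), and both passed without EAE acute replicate 1 (limma adjusted p = 0.0137 and 0.0262) and the subacute one also without acute replicate 2 (0.0349). Both were called with edgeR (adjusted p = 0.019 and 0.0257), quantile normalization (limma adjusted p = 0.00969 and 0.0284), mitochondrial rRNA left out (0.014 and 0.0293) and the 2 groups alone (0.00562 and 0.032). Acute TBI gave 993, 683 and 583 against 318, 348 and 815 CPM, which overlapped through control replicate 3 (0.71 ± 0.32, limma adjusted p = 0.24; without it adjusted p = 0.0244).

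Nid1, the nidogen with the higher level per coding length in all libraries, rose against control where Lamb1 did, except in subacute stroke. In epilepsy it was at 152, 177 and 135 CPM in controls, 179, 192 and 90.1 at the acute, 381, 301 and 260.5 at the subacute and 139, 223 and 151 at the chronic stage. The subacute libraries lay above all others of the model (log2 fold against control 1.01 ± 0.25, limma adjusted p = 0.0118, and against acute 1.08 ± 0.25, limma adjusted p = 0.00189). The call against control was lost without subacute replicate 1 (limma adjusted p = 0.0658). In EAE it went from 323, 340.3 and 282 CPM to 658, 696 and 630.3 at the subacute and 458, 895 and 1264 at the chronic stage. Neither stage overlapped the controls (1.07 ± 0.32, limma adjusted p = 0.0446, and 1.35 ± 0.32, limma adjusted p = 0.0413). Both calls were close to the threshold. The subacute one was lost without any control or subacute library, acute replicate 3 or chronic replicate 2 (limma adjusted p = 0.0516 to 0.14), and the chronic one without any control, subacute replicate 1 or 3, or chronic replicate 2 or 3 (0.0565 to 0.171).

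In acute TBI, Nid1 stood at 844, 594 and 585 CPM against 187, 242 and 537, all higher (log2 fold 1.19 ± 0.33, limma adjusted p = 0.0435). The call was lost without acute control replicate 1 or 2, any acute library, subacute replicate 2, either chronic control or any chronic library (limma adjusted p = 0.0523 to 0.194). Subacute TBI was at 719.7, 774 and 520.1 against 256 and 466 CPM, all higher and not called (0.94 ± 0.36, limma adjusted p = 0.296). In subacute stroke the values were 231, 312 and 184 against 180.4, 99.7 and 177 CPM, again all higher and not called (0.68 ± 0.31, limma adjusted p = 0.165).

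Nid2 rose in 2 comparisons with control. It rose in acute epilepsy, from 26.9, 31.3 and 27.0 to 65.4, 52.0 and 51.3 CPM (log2 fold 0.96 ± 0.28, limma adjusted p = 0.0118), where Nid1 had a fold of -0.07 ± 0.25. The call was lost without acute replicate 1 (limma adjusted p = 0.0513). Of the 5 neutrophil markers tested, 4 were also higher in acute epilepsy, beside 11.6% of all genes. Sums over the list of 8 were 12.8 to 69.0 CPM against 1.13 to 9.27 in controls, where Ly6g, Camp and Mmp8 were at 0. In chronic epilepsy neither these 5 markers nor Nid2 were called. There S100a8 had a mean of 8.48 CPM against 9.09 at the acute stage, and Cxcr2 0.658 against 2.57. Of other lists, the astrocyte marker Gja1 and the oligodendrocyte marker Mal were also higher in acute epilepsy, and the oligodendrocyte marker Cnp was lower. The part of these cell types in the acute epilepsy values was not tested. Nid2 also rose in acute TBI, as Nid1 did, from 61.1, 69.6 and 102 to 149, 137 and 134 CPM (0.88 ± 0.23, limma adjusted p = 0.0347), a call lost without acute control replicate 1 or 2 or any acute library (limma adjusted p = 0.0633 to 0.152). In acute EAE it lay at 33.0, 70.1 and 69.4 CPM, below all controls at 121, 105 and 107, without passing limma (-1.01 ± 0.29, limma adjusted p = 0.104). With edgeR's quasi-likelihood test on the recovered reads that fall was called (adjusted p = 0.0428). The lowest of the 3, acute replicate 1, stood apart in other measures, with 34.4% mitochondrial rRNA against 12.2% and 14.8%, summed endothelial markers of 7228, 11419.5 and 12124 CPM and summed fibroblast markers of 2394, 343 and 370.1 CPM in replicate order. Without it the log2 fold was -0.66 (limma adjusted p = 0.188), and the part of these differences was not tested. The acute Nid2 response differed between the models (F test in limma, adjusted p = 0.000338), with a fold of -0.21 in stroke, and that call held without any 1 of the 52 libraries. The Nid1 to Nid2 ratio per coding length was 5.62 to 6.40 in epilepsy controls and 1.98 to 4.16 at the acute stage, while in EAE it was 2.97 to 3.65 in controls and 5.88 to 9.29 at the acute stage.

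Perlecan rose at the subacute stage in epilepsy and EAE. Hspg2 was at 177, 247 and 229 CPM in epilepsy controls, 161, 184 and 148 at the acute, 389, 322 and 293 at the subacute and 202, 226 and 227 at the chronic stage. The acute libraries were lower with a slight overlap (log2 fold -0.39 ± 0.14, limma adjusted p = 0.0387), the subacute ones above all others of the model (0.62 ± 0.14, limma adjusted p = 0.00898), and the step between these stages was 1.01 ± 0.14 (limma adjusted p = 3.91e-05). From there to the chronic stage it fell by 0.60 on the log2 scale (limma adjusted p = 0.0234). The acute fall was lost without control replicate 2 or 3, acute replicate 1 or 3, subacute replicate 2 or chronic replicate 2 (limma adjusted p = 0.0502 to 0.139), and with edgeR (adjusted p = 0.405). The subacute rise was lost without subacute replicate 1 (limma adjusted p = 0.0579), and the chronic fall without subacute replicate 1 or 2 or any chronic library (0.0583 to 0.132).

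In EAE, Hspg2 was at 435, 361 and 348 CPM in controls and 520.2, 877 and 779 at the subacute stage (log2 fold 0.90 ± 0.27, limma adjusted p = 0.0484). That call was lost without any control or chronic library, acute replicate 3 or subacute replicate 2 or 3 (limma adjusted p = 0.0549 to 0.149). In the chronic stage, where Lamb1 and Nid1 were still high, Hspg2 was at 409, 452 and 432 CPM (0.18 ± 0.27, limma adjusted p = 0.811). In subacute stroke Hspg2 was not called, with 249, 289.8 and 220.1 against 292, 218 and 245 CPM (0.01 ± 0.20, limma adjusted p = 0.987). Acute TBI gave 509, 406 and 597 against 345, 358 and 411 CPM (0.42 ± 0.17, limma adjusted p = 0.176).

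Counted over the 10 genes, acute epilepsy had 1 higher and 2 lower, where 42.5% of the 13740 tested genes were called and the median gene had a log2 fold of -0.22. Subacute epilepsy had 5 higher and 1 lower, where 11.0% of genes were higher and 4.67% lower, with a median of 0.55 for the 10 and 0.07 for all genes. From acute to subacute epilepsy 4 rose (37.9% of genes), and from subacute to chronic 3 fell (3.33%). Subacute EAE had 4 higher against 8.06% of genes, and chronic EAE 2 higher against 1.88%. Subacute stroke had 1 higher and 2 lower, against 3.66% and 4.19% of genes and a median of -0.14 over all genes. In the steps between stroke stages Lamb1 was the member that rose to the subacute stage (3.24% of genes) and fell to the chronic (2.47%). Acute TBI had 3 higher against 3.50% of genes. No member was called by limma in chronic epilepsy (0.0655% of genes), acute EAE (1.25%), acute stroke (1.42%), subacute TBI (1.36%), or chronic stroke and chronic TBI, where 0.00% of genes were called. At an unadjusted p under 0.05, 1 of 10 stood out in chronic epilepsy, 1 in acute EAE, 2 in acute stroke, 6 in subacute TBI, 4 in chronic stroke and 0 in chronic TBI, and edgeR called 1 in acute EAE and 0 in the other 5. In the steps between EAE stages 0 of 10 were called by limma (0.103% of genes from acute to subacute and 0.627% from subacute to chronic), 5 and 1 had an unadjusted p under 0.05, and edgeR called 0. Between models 3 of 10 differed at the acute stage (32.3% of genes), 0 at the subacute (7.61%; 4 at an unadjusted p under 0.05 and 0 with edgeR) and 1 at the chronic stage (2.40%). All shares of genes given here are at an adjusted p under 0.05. The share of all genes at an unadjusted p under 0.05 was not taken, so the counts at that threshold have no background and are not read as a result.

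Scaling moved the background and not the direction of a called member. The share of higher genes among all called was 27.2% in acute epilepsy and 47.1% with quantile normalization. The same pair was 70.2% and 53.5% in subacute epilepsy, 76.2% and 51.8% from acute to subacute epilepsy, 69.4% and 46.8% in subacute EAE, and 76.5% and 61.2% in chronic EAE. In stroke it was 46.6% and 64.8% at the subacute stage, where it was 79.7% with mitochondrial rRNA left out. Between healthy groups it was 34.9% and 50.9% for brain endothelial cells against the organs and 30.5% and 46.3% for brain vascular cells. It was 46.9% for brain endothelial against brain vascular cells and 24.9% with mitochondrial rRNA left out, and 54.2% and 38.6% for spinal cord against brain controls. The median log2 fold of all genes was -0.11 in acute stroke, -0.15 in chronic stroke, 0.13 in chronic TBI, 0.33 from acute to subacute epilepsy and -0.14 for brain endothelial and -0.14 for brain vascular cells against the organs. It was -0.23 for brain vascular cells against kidney, 0.10 for lung against liver and -0.11 for brain endothelial cells against whole brain, and the folds of the 10 genes stand beside these shifts. No call on the 10 genes changed sign under any scaling.

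**Figure D5:**
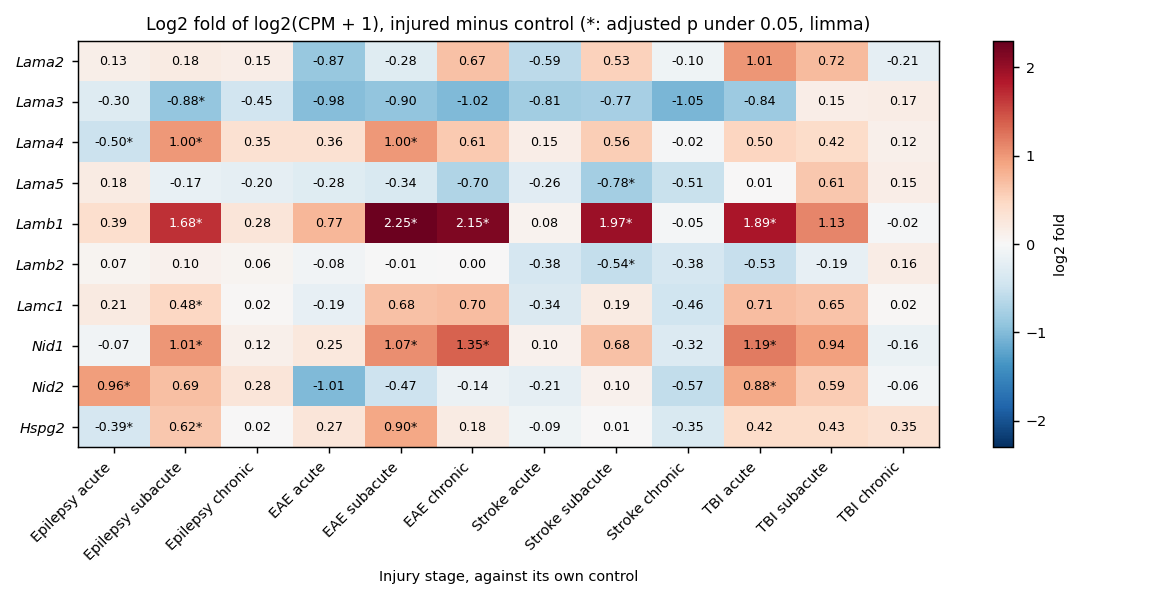
Log2 fold of each gene at each injury stage against its own control, on the log2(CPM + 1) scale, with a star where limma's adjusted p was under 0.05. Lamb1 has the largest positive fold of the 10 in subacute epilepsy (1.68), subacute EAE (2.25), chronic EAE (2.15), subacute stroke (1.97) and acute TBI (1.89), while Lamb2 stays between -0.54 and 0.16.

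Fibroblast markers, which include the matrix genes Col1a1, Col1a2, Col3a1, Dcn and Lum, moved with the Lamb1 rise in part of the comparisons. In subacute stroke all 9 tested were higher (median log2 fold 4.21), beside 3.66% of all genes. Their summed level was 428, 871 and 1230.4 CPM against 21.3 to 39.4 in controls. In subacute EAE 1 of 10 was called higher, near the 8.06% of all genes that were, with sums of 3521, 695 and 3821 against 637, 982 and 329.9 CPM. There the library with the lowest fibroblast sum, replicate 2, had the highest Lamb1, whereas in chronic EAE the sums of 1366, 3213 and 7555 CPM were in the same order as the Lamb1, Nid1, Lamc1 and Lama2 values. In subacute epilepsy 4 of 9 were higher at sums of 89.9 to 135 against 26.9 to 71.5 CPM, and in acute TBI 4 of 10 at 140.3 to 377 against 67.6 to 108. Of all genes, 11.0% were higher in subacute epilepsy and 3.50% in acute TBI. No marker of the list was at 0 in every library of any injury group. The part of fibroblasts in the rise of these genes was not tested.

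Control spinal cord endothelial cells were above the epilepsy and stroke controls of the brain in 3 of the 10 genes and below them in 0. Nid2 was at 121, 105 and 107 CPM in spinal cord, 26.9, 31.3 and 27.0 in epilepsy controls and 52.3, 31.3 and 51.1 in stroke controls (log2 fold of spinal cord against the mean of both 1.62 ± 0.25, limma adjusted p = 3.97e-06). Nid1 (1.06 ± 0.30, limma adjusted p = 0.00454) and Hspg2 (0.71 ± 0.18, limma adjusted p = 0.00237) were higher too, with all 3 spinal cord libraries above all 6 brain libraries. These 3 calls held without any 1 of the 52 libraries, and Lamb1 was not called (0.57 ± 0.32, limma adjusted p = 0.153). The 7 TBI controls were not in that mean and reached the spinal cord levels in part, at 177 to 537 CPM for Nid1, 192 to 411 for Hspg2 and 37.7 to 102 for Nid2. With the brain mean taken over all 5 control groups, an alternative chosen after seeing the data, Nid1 was not called (0.54 ± 0.27, limma adjusted p = 0.0933), Nid2 (1.21 ± 0.23, 4.19e-05) and Hspg2 (0.52 ± 0.17, 0.00904) were, and Lama2 was called higher (1.08 ± 0.43, 0.0336). Among all 15417 tested genes 20.9% (3220) were higher in spinal cord and 2716 were lower, so differences were common over all genes. All 10 fibroblast markers were higher as well (median log2 fold 2.94), and their part was not tested. The control groups were made for separate models, so region and model cannot be told apart.

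Other genes of the basement membrane were read from lists. Lama1, an alpha chain outside the 10 genes, rose in subacute stroke, from 1.87 to 14.0 CPM (limma adjusted p = 0.000193). Of the collagen IV and related proteins, 5 of 17 rose and 3 fell in subacute epilepsy, 6 rose and 1 fell of 18 in subacute stroke, 5 rose and 1 fell of 18 in subacute EAE, and 2 of 18 rose in acute TBI. This list shares Egfl7 with the endothelial and Fbln1 with the fibroblast markers. Fbln1 rose in subacute stroke (limma adjusted p = 0.00122) and is counted in both lists there. Of all genes 11.0% rose and 4.67% fell in subacute epilepsy, 3.66% and 4.19% in subacute stroke, 8.06% and 3.56% in subacute EAE, and 3.50% rose in acute TBI. Col4a2, a chain of the main basement membrane collagen, went from 273 to 679.6 CPM in subacute epilepsy (limma adjusted p = 2.48e-05) and from 797 to 1471 in acute TBI (0.0179). It had also risen in acute epilepsy, from 273 to 581 (1.92e-05), the stage at which Lama4 and Hspg2 fell. Sparc, a collagen-binding matricellular protein, went from 1784 to 6046 CPM in subacute epilepsy (limma adjusted p = 3.5e-05). Tinagl1, a matricellular protein of basement membranes, fell in EAE from 191 to 99.6 CPM at the subacute stage (limma adjusted p = 0.0267), and Ntn4, a netrin that binds the laminin gamma1 chain, fell from 51.6 to 19.1 in subacute epilepsy (0.000101). The list's median log2 fold was 0.17 in subacute epilepsy and 0.42 in subacute stroke, beside 0.07 and -0.14 over all genes.

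Some enzymes that modify and crosslink matrix rose in 4 of the 5 comparisons with control in which Lamb1 rose. They numbered 8 of 14 in subacute epilepsy, 7 of 16 in subacute EAE, 8 of 16 in subacute stroke and 7 of 16 in acute TBI, with 1 lower in subacute EAE and none lower in the other 3, beside 11.0%, 8.06%, 3.66% and 3.50% of all genes that rose. In chronic EAE, where Lamb1 also rose, 0 of 16 were called by limma, and in acute epilepsy, where Lamb1 was not called, 6 of 14 rose and 2 fell, beside 11.6% and 30.9% of all genes. Loxl2, a lysyl oxidase that crosslinks collagen IV, went from 2.71 to 9.79 CPM in subacute epilepsy, 10.1 to 58.6 in subacute EAE, 3.37 to 41.2 in subacute stroke and 8.50 to 25.4 in acute TBI (limma adjusted p = 0.00142, 0.0123, 6.29e-05 and 0.0167). Pxdn, the peroxidase that forms sulfilimine bonds in collagen IV, went from 7.94 to 30.9 CPM in subacute EAE (limma adjusted p = 0.00148). The medians of the list were 0.73, 0.76, 0.47 and 0.45, beside 0.07, 0.01, -0.14 and -0.03 over all genes.

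Among 12 laminin receptors, 5 rose in subacute epilepsy, 5 in subacute EAE and 3 in subacute stroke, where 1 fell, beside 11.0%, 8.06% and 3.66% of all genes that rose and 4.19% that fell in subacute stroke. Itga3, an integrin alpha chain that binds laminins with the alpha5 chain, went from 35.1 to 204 CPM in acute epilepsy (limma adjusted p = 1.68e-06) and Itga6, another laminin-binding integrin chain, from 682 to 1497 (1.61e-05). Sdc4, a cell surface heparan sulfate proteoglycan, went from 19.2 to 154 CPM in subacute EAE (limma adjusted p = 0.00067). Bcam, a receptor for the alpha5 chain, fell in acute epilepsy from 239.7 to 144 CPM (8.53e-05). Of the laminin and nidogen proteases, 5 of 14 rose in subacute epilepsy, 5 of 18 in subacute EAE, 10 of 18 in subacute stroke and 4 of 17 in acute TBI, and 1 fell in subacute epilepsy and 1 in acute TBI. The shares of all genes that rose are those given for the receptors, with 3.50% in acute TBI, where 1.95% fell. The metalloprotease Mmp14 went from 5.79 to 36.3 CPM in subacute EAE and 4.46 to 23.9 in subacute stroke (limma adjusted p = 0.00167 and 0.000226). Adamts4 went from 4.06 to 43.8 CPM in subacute epilepsy and 8.39 to 113 in acute TBI (3.57e-06 and 0.00123). Heparan sulfate enzymes, which build or trim the chains that perlecan carries, were called in 1 of 12 in subacute epilepsy, where Ndst1 rose from 54.9 to 79.8 CPM (0.0411). In acute epilepsy, where 30.9% of all genes were lower, 5 of 12 were lower and 1 higher, with Extl3 falling from 341 to 119 CPM (1.03e-06). Of 8 enzymes that build the laminin-binding glycan of dystroglycan, 5 were also lower in acute epilepsy, and none was called in the other 11 comparisons with control.

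Over the means of the 18 injury and control groups, Lamb1, Lamc1 and Nid1 had the most alike patterns of the 10. Pearson's r of log2(CPM + 1) was 0.93 for Lamb1 with Nid1, 0.92 for Lamb1 with Lamc1 and 0.92 for Lamc1 with Nid1, and Nid1 had 0.88 with Hspg2 and 0.84 with Nid2. Lama4 had 0.85 with Lamb1, whereas Lamb2 had -0.41 and Lama3 -0.66. These are descriptions over 18 groups that share models and preparation. Among 7709 genes with a mean over 10 CPM, those most like Lamb1 were Fscn1 (0.958), Nid1, Pvrl2 (0.929), Fkbp10 (0.919) and Lamc1. Those most like Nid1 were Rap2a (0.941), Lamb1, Rassf2 (0.928), Lamc1 and Creb3l2 (0.917). The gene most like Lama4 was Pxdn (0.951), the one most like Hspg2 was Sh3bp5 (0.957), and the one most like Lama2 was Lrp1 (0.955). For Lamb2 the highest r was lower, at 0.832 with Sdr39u1.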

How the data were processed

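RNA from 68 mouse libraries was sequenced after sorting of endothelial cells, or from whole brain, with NuGEN Ovation RNA-seq kits, per the labels' protocols. The authors deposited one table of CPM (read counts scaled to a library total of 1000000) with 37991 lines. Tools named in the submitters' processing notes, without a role, are featureCounts, Subread and TopHat2 2.0.13, and the build named is mm9. All nonzero values were whole multiples of 1 read (100% within 0.001), so reads were recovered for depth, which was 18779302 to 38758865 reads per library, and for edgeR. Tests used limma 3.58.1 (R 4.3.3) on log2(CPM + 1), fitted per model or over the healthy groups, with a trend in variance. Genes needed over 1 CPM in 3 libraries (2 for TBI and healthy groups), and p-values were adjusted by Benjamini-Hochberg over all genes tested. The 4 models and the controls of both regions were compared in one fit of 52 libraries. The test was tested on simulated data, in which a small part of the genes changed and the mix of cells did not. Those data do not cover shifts in cell mix or scaling. Alternatives were quantile normalization, mitochondrial rRNA left out, a pseudocount of 0.1, no filter, edgeR 4.0.16, a replicate block, the 2 groups alone, pooled TBI controls and each library left out. Levels between genes are per kb of coding sequence. Named pathway genes are up to 3 per list with the lowest adjusted p. Some genes of these lists are not reported here. The genes and lists were chosen with earlier results of these data known.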

Additional observations from a re-analysis of the deposited data

Results flagged for a closer look

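The response to injury differed between the 4 models for 4 gene and stage pairs, by the F test of limma on the fold against the own control. At the acute stage they were 3 of 10, where 32.3% of all genes differed, and at the chronic stage 1 of 10, where 2.40% did. For Nid2 at the acute stage the adjusted p was 0.000338, with log2 folds of 0.96 in epilepsy, -1.01 in EAE, -0.21 in stroke and 0.88 in TBI. For Lama4 at the acute stage it was 0.00965, with folds of -0.50, 0.36, 0.15 and 0.50 in the same order. It was lost without epilepsy control replicate 2 (limma adjusted p = 0.0623). For Lamb1 at the acute stage it was 0.026 and was lost without any of 5 libraries, named in the account of Lamb1. For Lamb1 at the chronic stage it was 0.023, with folds of 0.28, 2.15, -0.05 and -0.02, and was lost without any of 4 EAE libraries, named there too. EAE was sampled from spinal cord and the other models from brain, so region and model cannot be told apart.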

How the results depend on the processing

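Of 73 calls on these genes, 38 held under every alternative and none changed direction. For the 4 pairs of healthy groups whose calls are named, the alternatives were chosen after seeing the data. Counts below are members called, with the reported count in brackets.

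Without a filter on low values they were 1 (3) in acute and 3 (6) in subacute epilepsy, 0 (3) from subacute to chronic epilepsy, 2 (4) in subacute and 0 (2) in chronic EAE, 1 (3) in subacute stroke, 1 (3) in acute TBI and 0 (1) between models at the chronic stage. Between lung and liver they were 3 (6) without a filter and 3 with a pseudocount of 0.1. Testing without a filter covers more genes, which raises the adjustment. With the 2 groups alone they were 1 (3) in acute epilepsy, 4 (2) in chronic EAE, 5 (3) in subacute stroke and 1 (3) in acute TBI. With edgeR they were 1 (0) in acute EAE and 5 (3) in acute TBI. With mitochondrial rRNA left out they were 5 (3) in subacute stroke, 2 (1) and 3 (1) in the steps between stroke stages, 6 (3) in acute TBI and 5 (3) between models at the acute stage. With quantile normalization they were 2 (1) and 3 (1) in the stroke steps, 6 (3) in acute TBI, and 5 (3) and 2 (1) between models at the acute and chronic stages. Pooled TBI controls gave 5 (3) in acute and 2 (0) in subacute TBI. The cause of these shifts was not tested beyond what each alternative leaves out.

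Leaving out each library in turn gave 1 to 3 in acute epilepsy, 3 to 7 in subacute epilepsy, 4 to 5 from acute to subacute and 0 to 4 from subacute to chronic epilepsy. It gave 2 to 6 in subacute EAE, 0 to 3 in chronic EAE and 0 to 1 from subacute to chronic EAE. In stroke it gave 0 to 1 at the acute, 1 to 5 at the subacute and 0 to 4 at the chronic stage, 1 to 2 from acute to subacute and 1 to 4 from subacute to chronic. In TBI it gave 1 to 5 at the acute and 0 to 1 at the subacute stage. Brain endothelial cells against the organs gave 4 to 5, brain vascular cells 4 to 6, brain endothelial against brain vascular cells 0 to 3 and against whole brain 9 to 10, brain vascular cells against kidney 5 to 8, lung against liver 2 to 6, spinal cord controls 3 to 4, and the models 2 to 6 at the acute and 0 to 2 at the chronic stage. In chronic stroke, Lama3, Lamb2, Lamc1 and Hspg2 were called lower only without chronic replicate 1 (limma adjusted p = 0.0173, 0.0268, 0.0382 and 0.0459).

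Beyond those named in the report, members that were not called passed without 1 library as follows: Nid2 in subacute epilepsy (without subacute replicate 3 or chronic replicate 2, limma adjusted p = 0.0398 to 0.0408), Nid1 from subacute to chronic epilepsy (control replicate 2 or 3, acute replicate 2 or 3 or chronic replicate 2, 0.0103 to 0.0456) and Lama3 from acute to subacute epilepsy (subacute or chronic replicate 1, 0.0156 to 0.0477). Lama2 passed from subacute to chronic EAE without chronic replicate 1 (0.0349) and from acute to subacute stroke without acute replicate 2 (0.0031). Lama4, Lamc1 and Nid1 passed from subacute to chronic stroke without chronic replicate 1 (0.0285, 0.0273 and 0.025). In healthy brain vascular cells Lamb2 passed without brain vascular replicate 1 (0.0391) and Nid2 without lung replicate 1 (0.0448), and in spinal cord controls Lama2 without TBI acute control replicate 3 (0.0325) and Lama4 without epilepsy control replicate 2 (0.0377). Between models at the acute stage, Lama2, Lamc1 and Nid1 passed without TBI acute control replicate 3 (0.00372, 0.00626 and 0.0157), Lama2 also without TBI acute replicate 3 (0.0195), Lamb2 without EAE acute replicate 1 (0.0105) or TBI acute replicate 1 (0.0384) and Hspg2 without EAE acute replicate 1 (0.0206). At the chronic stage Nid1 passed without EAE chronic replicate 1 (0.0189).

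Calls lost under a tool or scaling were Lamc1 in subacute epilepsy (edgeR adjusted p = 0.057), Lamb1 in brain vascular cells against the organs (edgeR, 0.0601), Lamb1 between models at the acute stage (edgeR, 0.0761) and Lamb2 in subacute stroke (quantile normalization, limma adjusted p = 0.0537), beside those in the report. In pairs of healthy groups they were Lama5 between brain vascular cells and kidney (edgeR, 0.0773) and, between lung and liver, Lama2 (quantile 0.0882, without mitochondrial rRNA 0.0504, edgeR 0.185) and Nid2 (0.118, 0.061 and 0.0581 in that order). Beyond those in the report, calls gained under both other scalings (quantile, then without mitochondrial rRNA) were Lamc1 from acute to subacute epilepsy (limma adjusted p = 0.00529 and 0.0457), Nid1 from subacute to chronic epilepsy (0.0346 and 0.0484), Nid1 in subacute stroke (0.0347 and 0.0419), Lama2 from acute to subacute stroke (0.0302 and 0.0346), Lama4 and Nid1 from subacute to chronic stroke (0.025 to 0.0327), Hspg2 in acute TBI (0.0375 and 0.0485), Lamb2 in brain vascular cells against the organs (0.00227 and 0.00525), Lamb2 in spinal cord controls (0.00061 and 0.00662), and Lamb2 and Hspg2 between models at the acute stage (0.00401 to 0.0391). With edgeR they were Lamc1 in acute epilepsy (0.0124), Lama3 and Lama5 from acute to subacute epilepsy (0.00475 and 0.00592) and Lamb2 in brain endothelial cells against the organs (0.0207).

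Same-numbered libraries did not all deviate together. The correlation of their deviations had a median of 0.0187 in epilepsy, -0.0036 in EAE, 0.0193 in stroke, 0.0616 in TBI and 0.0084 in healthy groups, and was over 0.1 in 2 of 18, 6 of 18, 7 of 18, 14 of 36 and 3 of 42 pairs, so the libraries were taken to share only a number. With the replicate block, acute TBI had 1 member called (3 without it), and no other count here moved by over 1.5 times. Calls lost with the block were Nid1 and Nid2 in acute TBI (limma adjusted p = 0.0674 and 0.0568), Lamb1 in brain vascular cells against the organs (0.0629), Lama2 in brain endothelial cells against brain vascular cells (0.0627) and whole brain (0.0662), and Lama2 and Nid2 between lung and liver (0.12 and 0.0564). Groups of 2 or 3 libraries limit what the test can call.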
